A study of Mus musculus with 2 samples.

Results

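Egr1, Egr2, Egr3, Nr4a1, Nr4a2 and Nr4a3 are 6 of the 31053 genes counted in non-cardiomyocytes of the mouse heart, and each was found by its symbol in both libraries. They were chosen because members of the same family had gone in different directions in these very libraries, so all values here describe the cells and are no test. The cells came from male C57BL6/J wildtype mice on day 20 after transverse aortic constriction (TAC), a banding of the aorta that overloads the heart with pressure, or on day 20 after sham surgery, with 1 library per group. All hearts were digested with enzymes, cardiomyocytes were left to settle, and viable cells were collected by flow sorting for a droplet-based 3′ kit. The labels do not give the number of hearts per library, so no difference has a replicate check and no p-value was computed.

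The EGR proteins are zinc finger transcription factors that bind GC-rich DNA, and the NR4A proteins are orphan nuclear receptors that act without a known natural ligand. Genes of both families are immediate early genes: growth factors, stretch, calcium or cyclic AMP switch them on within minutes through transcription factors already present in the cell, such as SRF with its ternary complex factors and CREB, and their RNA is short-lived. Egr1 is a broad sensor of such signals, while Egr2 and Egr3 are known from nerve, muscle spindle and lymphocyte development and, in fibroblasts, from responses to TGF-beta. Nr4a1 is known for restraining inflammatory genes in macrophages and TGF-beta signalling in fibroblasts, Nr4a2 for dopamine neurons, and Nr4a3 shares many DNA sites with both. Enzymatic digestion of tissue is known to induce genes of this kind, and both libraries were made after digestion.

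The promoters of Egr2 and of the NR4A genes are shown because CREB and SRF sites are the known entry points of early gene induction, and because Egr2 and Nr4a2 differed from Nr4a1 in direction in fibroblasts. Windows are given for 4 of the 6 members, and Egr1 and Egr3 are not shown. The 300-base windows run from 250 bases before to 50 bases after the start site, 5′ to 3′, from RefSeq on GRCm38.p6: Egr2 at chr10:67537619-67537918 (plus strand), Nr4a1 at chr15:101266596-101266895 (plus), Nr4a2 at chr2:57123954-57124253 (minus) and Nr4a3 at chr4:48045055-48045354 (plus). Egr2 had 5 listed starts, and the one nearest to a principal transcript start in GENCODE vM21 was taken. Capitals mark CREB core sites, TGACG or its complement CGTCA, and in Egr2 also the CArG box, the sequence that SRF binds.
Egr2: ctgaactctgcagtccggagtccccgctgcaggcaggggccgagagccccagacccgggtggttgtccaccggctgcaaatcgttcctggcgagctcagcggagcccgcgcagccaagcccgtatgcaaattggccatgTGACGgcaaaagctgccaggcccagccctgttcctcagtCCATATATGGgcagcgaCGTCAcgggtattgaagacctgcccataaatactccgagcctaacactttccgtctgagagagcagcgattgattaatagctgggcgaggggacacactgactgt
Nr4a1: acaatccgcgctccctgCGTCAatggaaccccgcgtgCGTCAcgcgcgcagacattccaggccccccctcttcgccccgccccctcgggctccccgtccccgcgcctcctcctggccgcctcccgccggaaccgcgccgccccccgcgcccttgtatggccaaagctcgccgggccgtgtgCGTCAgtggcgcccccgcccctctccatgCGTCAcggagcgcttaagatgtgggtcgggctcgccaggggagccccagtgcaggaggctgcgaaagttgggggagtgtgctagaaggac
Nr4a2: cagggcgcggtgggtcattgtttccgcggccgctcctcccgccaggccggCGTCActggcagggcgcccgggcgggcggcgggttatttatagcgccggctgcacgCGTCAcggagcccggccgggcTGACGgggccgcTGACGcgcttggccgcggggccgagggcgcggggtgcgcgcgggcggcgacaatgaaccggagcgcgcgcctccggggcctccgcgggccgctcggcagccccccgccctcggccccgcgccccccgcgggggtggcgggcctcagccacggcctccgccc
Nr4a3: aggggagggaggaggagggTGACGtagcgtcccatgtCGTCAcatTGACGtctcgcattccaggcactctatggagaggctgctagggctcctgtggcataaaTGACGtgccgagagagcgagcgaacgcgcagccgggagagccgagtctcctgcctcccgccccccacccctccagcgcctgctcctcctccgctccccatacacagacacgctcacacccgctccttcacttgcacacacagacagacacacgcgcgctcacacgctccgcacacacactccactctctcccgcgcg

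Each NR4A window held 4 CREB core sites, and 76 of 32851 mouse promoter windows (0.231%) held 4 or more when both strands were searched. In Nr4a1 they began 233, 213, 69 and 40 bases before the start site, in Nr4a2 200, 144, 123 and 111 bases before it, and in Nr4a3 231, 213, 205 and 147 bases before it. The Egr2 window held 2 core sites, where 5.01% of all windows held 2 or more, and a CArG box 72 bases before the start, a motif in 1.63% of windows. The EGR site GCGNGGGCG was present once in Nr4a1, 60 bases before the start, once in Nr4a2, 74 bases before it, and in 5.55% of all windows. None of the 4 windows held the full CREB site TGACGTCA, the NR4A site AAAGGTCA or the AP-1 site TGANTCA, which were in 1.79%, 1.51% and 7.81% of windows. Nr4a1 and Nr4a2 had GC contents of 72.3% and 81.7% beside a mean of 53.8% over all windows. The shares over all windows were not matched for GC content. The part of these sites in the fibroblast levels was not tested.

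The 6 genes lie on 6 chromosomes of mm10, and in the GENCODE vM21 annotation no other gene overlaps any of them. Egr1 spans chromosome 18 from 34859823 to 34864984, Egr2 chromosome 10 from 67535475 to 67542188, Egr3 chromosome 14 from 70077203 to 70082614, Nr4a1 chromosome 15 from 101254269 to 101274795 and Nr4a3 chromosome 4 from 48045153 to 48086447, all on the plus strand. Nr4a2 spans chromosome 2 from 57106830 to 57124003 on the minus strand.

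RNA molecules were counted by unique molecular identifiers (UMIs), 96003109 of them over 8901 barcodes in the TAC library and 42490230 over 8426 barcodes in the sham library. After filtering, 7854 TAC cells with a median of 11158 UMIs and 7894 sham cells with a median of 4881.5 UMIs were kept, and 15 barcode sequences occurred in both libraries. Each cell was put in the class whose marker genes it held in the largest share. This gave 5413 TAC and 6102 sham fibroblasts, 665 and 982 macrophages, 590 and 143 endothelial cells and 280 and 62 lymphatic endothelial cells, while 658 TAC and 426 sham cells entered no class. The median cell held 100% of the fibroblast markers in both libraries, 100% and 87.5% of the macrophage markers in TAC and sham cells, 100% and 75% of the endothelial ones and 100% and 85.7% of the lymphatic endothelial ones. Few cells lay near the minimum share of own markers: 14 TAC and 32 sham fibroblasts and 3 and 8 macrophages. The same held for 5 and 12 endothelial cells and 2 and 2 lymphatic endothelial cells. These counts do not cover the limit on markers of other lineages. A gate stricter in both limits kept 303 of 665 TAC and 781 of 982 sham macrophages, and 4967 TAC and 5874 sham fibroblasts. It kept 413 and 91 endothelial cells and 170 and 37 lymphatic endothelial cells. Fibroblasts held a median of 12113 UMIs in the TAC library and 4988.5 in the sham library, macrophages 8657 and 4418.5, endothelial cells 4307.5 and 2022. Levels are UMIs of a gene summed over the cells of a class, as counts per 1e6 UMIs of that class (CPM), with exact Poisson 95% intervals in brackets. The 3′ kit tags each molecule once whatever its length, so CPM of different genes compare molecules, although capture can differ between genes. Every interval reflects the number of UMIs or cells counted and holds no variation from mouse to mouse. Those of CPM and of ratios also treat the UMIs of a class as independent and leave out variation from cell to cell. They can therefore be too narrow where few cells hold many of the UMIs.

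**Figure D1:**
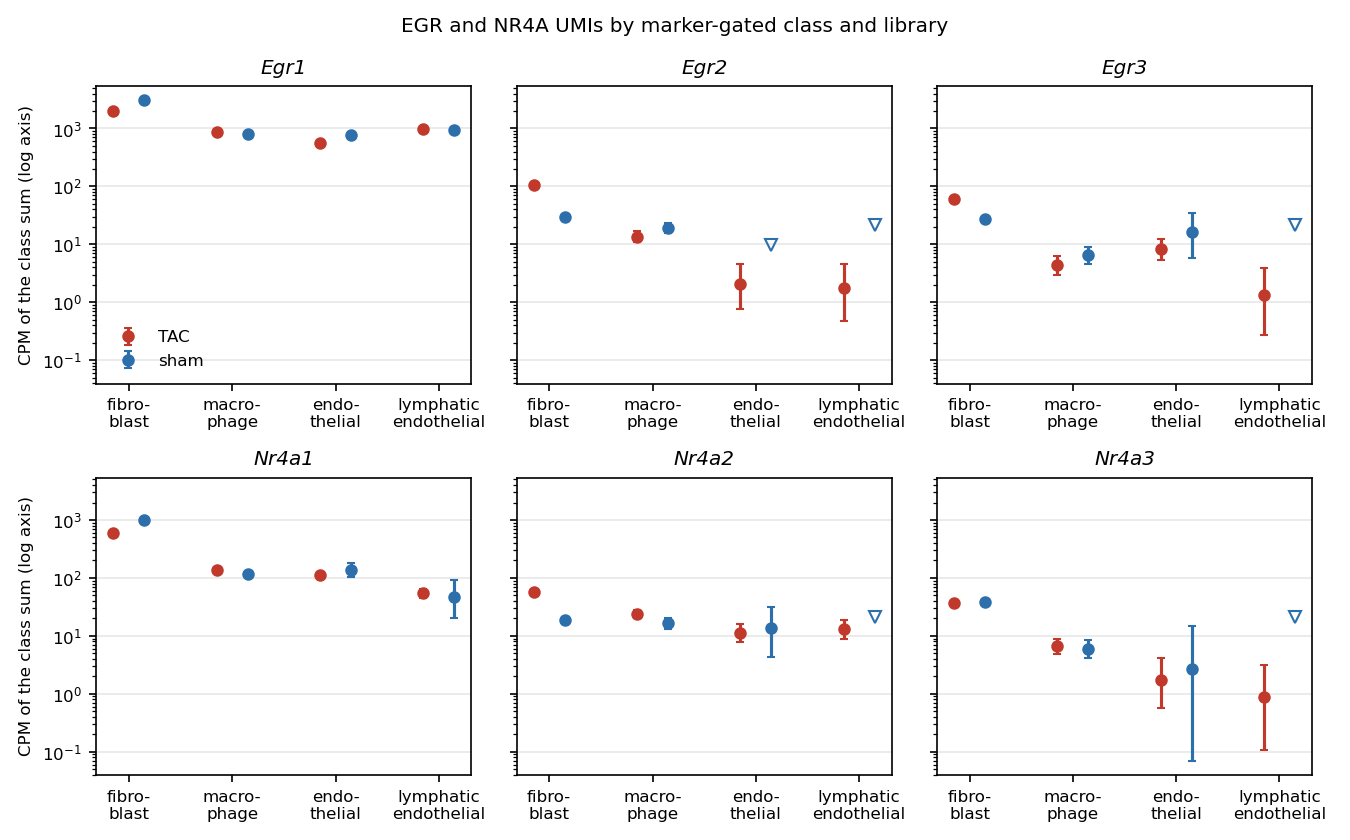
UMIs of each gene per 1e6 UMIs of the class (log axis) in the TAC library (red) and the sham library (blue), with exact Poisson 95% intervals, in 4 cell classes. Open triangles mark 0 UMIs and stand at the upper interval bound. Among these 4 classes all 6 genes had their highest CPM in fibroblasts in both libraries. In the sham library the Nr4a2 interval of fibroblasts overlapped those of the other classes, and the Egr3 interval that of endothelial cells. In fibroblasts Egr2, Egr3 and Nr4a2 were higher and Egr1 and Nr4a1 lower in the TAC library.

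In fibroblasts the families split. TAC fibroblasts held over 2-fold more Egr2, Egr3 and Nr4a2 than sham fibroblasts, less Egr1 and Nr4a1 by a factor under 2, and nearly the same amount of Nr4a3. Thus 3 of 6 members passed 2-fold upwards and 0 downwards, while of all 8819 genes with at least 10 CPM in either library 6.08% passed 2-fold, 3.39% upwards and 2.69% downwards. The median log2 ratio was 0.55 over the 6 members and -0.07 over all genes. Since the members were chosen from this contrast, the count describes them only. When cells of both libraries were clustered together, fibroblasts fell into largely separate clusters: the 3 with most TAC cells held 2421, 2171 and 558 TAC and 44, 25 and 5 sham cells, and the 3 with most sham cells 22, 171 and 19 TAC and 2359, 1310 and 1297 sham cells. With 1 library per group, a difference between fibroblast states cannot be told apart from a difference between libraries, and each ratio compares the fibroblasts as a whole.

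Egr1, the most abundant member, had 1968 CPM (1958 to 1979) in TAC fibroblasts and 3142 CPM (3123 to 3162) in sham fibroblasts. That is 1.60-fold lower (1.58 to 1.61) in the TAC library. Nr4a1 had 599 CPM (593 to 605) in TAC fibroblasts and 996 CPM (985 to 1008) in sham fibroblasts, 1.66-fold lower (1.64 to 1.69). The leading gene of each family was therefore lower by a similar factor, and for both genes the counting intervals of the libraries lay far apart. Per cell, without scaling, the means were 24.1 UMIs of Egr1 in TAC and 16.2 in sham fibroblasts, and 7.34 and 5.13 UMIs of Nr4a1, so the lower CPM came with more molecules counted in deeper cells.

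Egr2 had 108 CPM (105 to 110.4) in TAC fibroblasts and 29.8 CPM (27.9 to 31.8) in sham fibroblasts, a ratio of 3.62 (3.38 to 3.88) that ranked 98 from the top among the 8819 genes. Egr3 had 60.6 CPM (58.7 to 62.5) in the TAC library and 27.2 CPM (25.4 to 29.1) in the sham library, a ratio of 2.22 (2.06 to 2.40). Both are scarce beside Egr1, which made up 92.1% of 141811 EGR UMIs in TAC fibroblasts and 98.2% of 100420 in sham fibroblasts, with Egr2 at 5.05% in TAC and 0.932% in sham fibroblasts and Egr3 at 2.83% and 0.851%.

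Nr4a2 had 56.7 CPM (54.9 to 58.5) in TAC fibroblasts and 18.7 CPM (17.2 to 20.3) in sham fibroblasts, a ratio of 3.03 (2.78 to 3.31). Nr4a3 had 37.2 CPM (35.7 to 38.7) in the TAC library and 38.8 CPM (36.6 to 41.0) in the sham library, and the interval of its ratio, 0.894 to 1.03, included 1. The NR4A receptors thus showed all 3 patterns: Nr4a1 lower, Nr4a2 higher and Nr4a3 level over all fibroblasts. At like depth Nr4a3 was not level, as given below. Of the NR4A UMIs, Nr4a1 made up 86.5% in TAC and 94.5% in sham fibroblasts and Nr4a2 8.18% and 1.77%, so Nr4a2 stood above Nr4a3 in the TAC library and below it in the sham library.

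**Figure D2:**
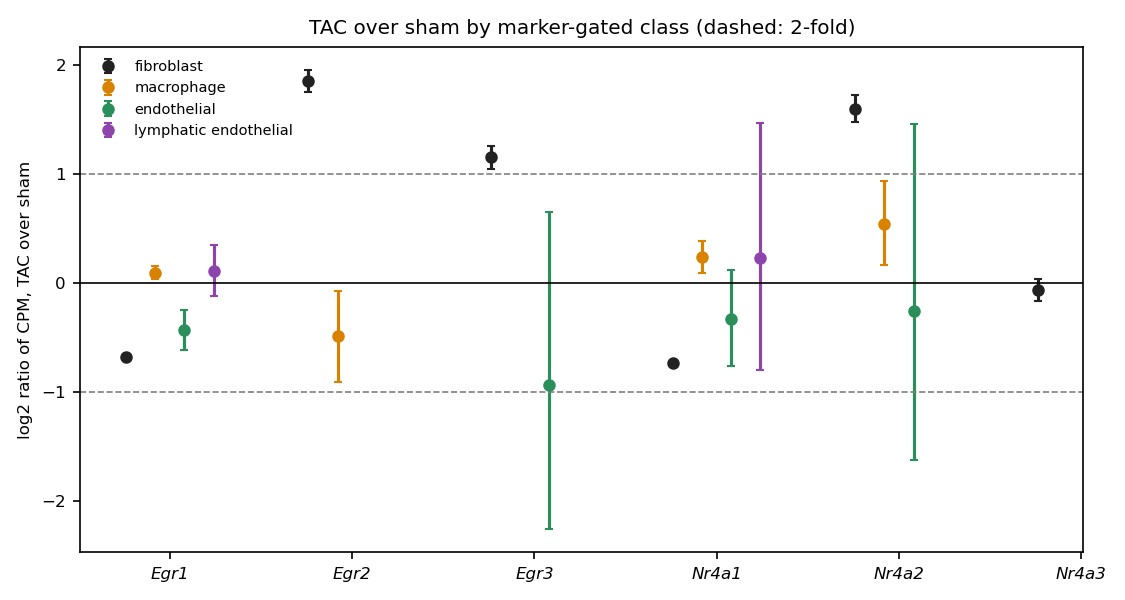
The log2 ratio of CPM, TAC over sham, for each gene in 4 cell classes, with exact conditional 95% intervals for counting error and dashed lines at 2-fold. Genes under 10 CPM in both libraries or with 0 UMIs in a library are not drawn. Fibroblast points lie at 1.85, 1.15 and 1.60 for Egr2, Egr3 and Nr4a2 and at -0.67 and -0.73 for Egr1 and Nr4a1, while macrophage points stay within 2-fold.

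Shares of fibroblasts with a UMI were compared after thinning each cell to 3800 UMIs, which left out 217 TAC and 1148 sham cells of fewer UMIs. Egr2 was seen in 24.96% of TAC fibroblasts (23.8 to 26.2) and 8.46% of sham fibroblasts (7.70 to 9.27), Egr3 in 17.2% and 7.57%, and Nr4a2 in 11.2% and 4.28%. The higher CPM of these 3 genes thus went with more cells in which they were seen. Egr1 was seen in 94.6% of TAC fibroblasts and 95.6% of sham fibroblasts, Nr4a1 in 63.4% and 70.0%, and Nr4a3 in 9.91% (9.11 to 10.8) and 9.35% (8.55 to 10.2). Nearly every fibroblast of either library therefore held Egr1 RNA, and the Nr4a3 shares overlapped within counting error. Without thinning, the shares in TAC and sham fibroblasts were 46.3% and 9.98% for Egr2, 35.0% and 8.92% for Egr3, 20.6% and 5.08% for Nr4a2, 97.6% and 95.002% for Egr1, 77.2% and 71.8% for Nr4a1, and 21.7% and 11.9% for Nr4a3. The order of the Egr1 and Nr4a1 shares is thus the reverse in unthinned cells, of which TAC cells were the deeper. No class known to lack these genes was fixed, so carry-over is given through fibroblast markers further on.

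**Figure D3:**
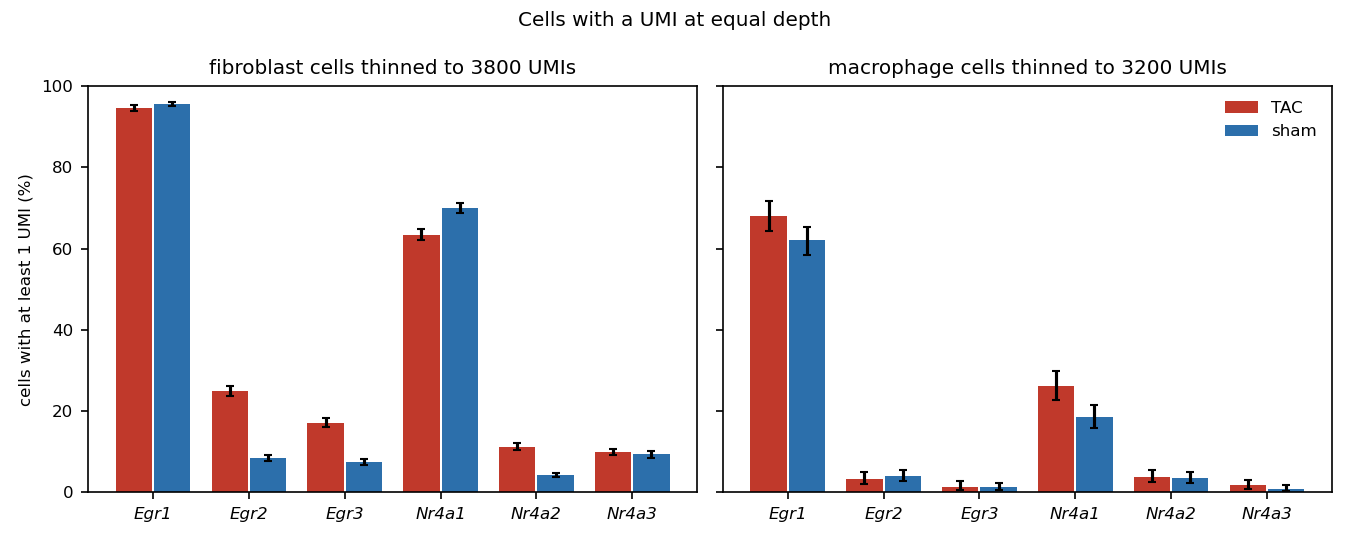
Share of cells with at least 1 UMI of each gene after thinning every cell to 3800 UMIs (fibroblasts) or 3200 UMIs (macrophages), TAC in red and sham in blue, with exact Clopper-Pearson 95% intervals. In fibroblasts the bars of Egr2, Egr3 and Nr4a2 are taller in the TAC library, and in macrophages only those of Egr1 and Nr4a1 exceed 10% of cells.

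Within fibroblasts the members were spread very unequally over cells. Egr1 had a median of 21 UMIs per TAC fibroblast and 15 per sham fibroblast, and the 10% of cells with most Egr1 held 24.5% of its UMIs in the TAC library and 24.9% in the sham library. Nr4a2 was at 0 in 79.4% of TAC and 94.9% of sham fibroblasts. In the TAC library the top 10% of cells held 82.4% of its UMIs, with up to 34 in a single cell. Between these lay Nr4a1, with 35.9% of TAC and 37.4% of sham UMIs in the top 10% of cells, and Egr2, with 53.3% in the TAC library. In thinned cells, 36.2% of TAC fibroblasts and 21.5% of sham fibroblasts held at least 3 of the 6 members.

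Each pair of members was seen in the same fibroblasts of either library more often than the product of the single shares. Egr2 and Egr3 were both seen in 6.72% of TAC fibroblasts, where the product gives 4.29%, and in 1.53% of sham fibroblasts, where it gives 0.640%. Nr4a2 and Nr4a3 were both seen in 2.39% of TAC fibroblasts beside a product of 1.11%, and in 0.949% of sham fibroblasts beside 0.3999%. These were the pairs with the highest ratio to the product in the TAC library, 1.57 and 2.15. Pairs of Egr2 or Egr3 with an NR4A gene had ratios of 1.12 to 1.28 in TAC fibroblasts and 1.17 to 2.01 in sham fibroblasts. Pairs with Egr1, which nearly every cell held, had ratios of 1.02 to 1.05 in TAC and 1.02 to 1.04 in sham fibroblasts. These are shares of cells of 1 library each, and the single shares are those after thinning.

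Other immediate early genes went mostly the other way from Egr2, Egr3 and Nr4a2. Of 28 listed genes 26 were measured in fibroblasts, of which 1 passed 2-fold upwards and 9 downwards, with a median log2 ratio of -0.77. Their summed level was 16825 CPM in TAC and 27929 CPM in sham fibroblasts. Atf3, a stress-induced transcription factor, had 21.8 CPM in TAC and 81.6 CPM in sham fibroblasts, Fos, a subunit of AP-1, 1816 and 4915 CPM, Klf10 38.8 and 105.9 CPM, and Ier5 84.2 and 227 CPM. The single higher gene, named after its value was seen, was the small MAF factor Maff with 119 CPM in TAC and 49.3 CPM in sham fibroblasts. Egr1 and Nr4a1, with log2 ratios of -0.67 and -0.73, lay near the list median, and Egr2, Egr3 and Nr4a2 above it. Of 10 heat shock genes 0 were at least 2-fold higher and 3 lower, with a median of -0.66 and with Dnajb1 at 93.9 CPM in TAC and 287 CPM in sham fibroblasts. The part that digestion or handling had in these differences was not tested.

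Fibroblasts of each library were then ordered by the summed CPM of the 28 other early genes, in which no member is counted, and split into 4 bins of equal cell number. Egr1 was 873, 1727, 2271 and 2975 CPM from the lowest to the highest bin in the TAC library, and 1207, 2696, 3698 and 4902 CPM in the sham library. Nr4a1 was 189.8, 463, 702 and 1034 CPM in TAC bins and 302, 785, 1220.2 and 1658 CPM in sham bins. In both libraries Egr1 and Nr4a1 were thus higher in each bin than in the one before it. Nr4a3 followed the same order, at 11.5, 25.8, 46.1 and 64.9 CPM in TAC bins and 10.9, 30.4, 43.2 and 70.2 CPM in sham bins.

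Egr2 and Egr3 varied less over the bins of the TAC library. Egr2 was 98.6, 104.9, 106.8 and 121 CPM in the 4 TAC bins and 10.3, 21.7, 36.6 and 50.3 CPM in the 4 sham bins. Egr3 was 51.0, 59.1, 65.2 and 66.6 CPM in TAC bins and 16.2, 21.5, 28.8 and 42.6 CPM in sham bins. TAC fibroblasts with the least other early RNA therefore held more Egr2 and Egr3 per 1e6 UMIs than sham fibroblasts with the most. Nr4a2 differed from both: it was 15.7, 44.3, 61.0 and 105 CPM in TAC bins and 10.2, 16.1, 22.2 and 26.0 CPM in sham bins, so the libraries were closest in the lowest bin and farthest apart in the highest. In fibroblasts within a central range of other early RNA set over both libraries, 3169 TAC and 2588 sham cells under a limit added after the data were seen, the log2 ratio was -0.21 for Egr1 and -0.13 for Nr4a1, against 2.27 for Egr2, 1.49 for Egr3 and 2.15 for Nr4a2. Nr4a3 was at 0.73 there, the reverse in sign of its value over all fibroblasts.

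**Figure D4:**
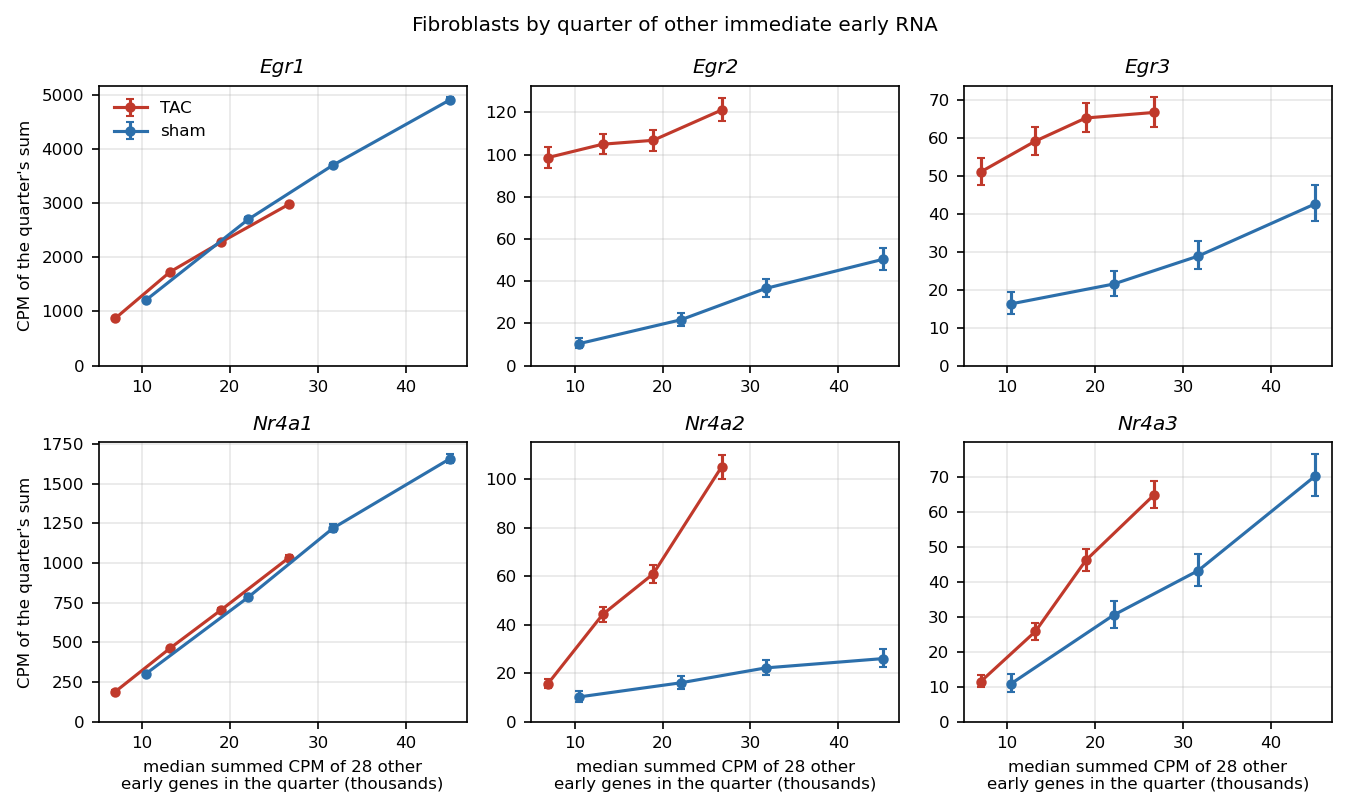
CPM of each gene in 4 bins of fibroblasts ordered by the summed CPM of 28 other immediate early genes, against the median of that sum in the bin, TAC in red and sham in blue, with exact Poisson 95% intervals. The Nr4a1 points of both libraries climb from bin to bin, between 189.8 and 1034 CPM in the TAC library and 302 and 1658 CPM in the sham library, whereas the TAC points of Egr2, Egr3 and Nr4a2 lie above the sham points.

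Depth moved beside these results as well. In fibroblasts of 4000 to 8000 UMIs, a range added after the data were seen that holds 441 TAC and 4356 sham cells, Egr2 had 72.8 CPM in TAC and 31.5 CPM in sham cells, a log2 ratio of 1.21. In the same cells Nr4a1 was at -1.01 and Nr4a3 at -1.10, both at least 2-fold lower in the TAC library. Thus 5 of 6 members passed 2-fold there, 3 upwards and 2 downwards, beside 652 of all genes (7.31%), 379 upwards and 273 downwards. Among TAC fibroblasts of over 12000 UMIs Egr2 had 117 CPM and Nr4a3 43.0 CPM, and among TAC fibroblasts of 5000 to 8000 UMIs 67.5 and 17.3 CPM. Sham fibroblasts of 5000 to 8000 UMIs had 41.9 CPM of Nr4a3. At 8000 to 12000 UMIs Nr4a3 was 27.7 CPM (25.5 to 30.1) in TAC and 43.9 CPM (36.8 to 52.0) in sham fibroblasts. It was 38.2 and 50.4 CPM under 3000 UMIs and 29.5 and 32.3 CPM at 3000 to 5000 UMIs, with overlapping intervals. Too few sham fibroblasts were over 12000 UMIs for a value. The size of the Egr2 ratio and the place of Nr4a3 thus moved with which TAC cells were counted, while the sign held for the other 5 genes in all 12 alternatives.

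**Figure D5:**
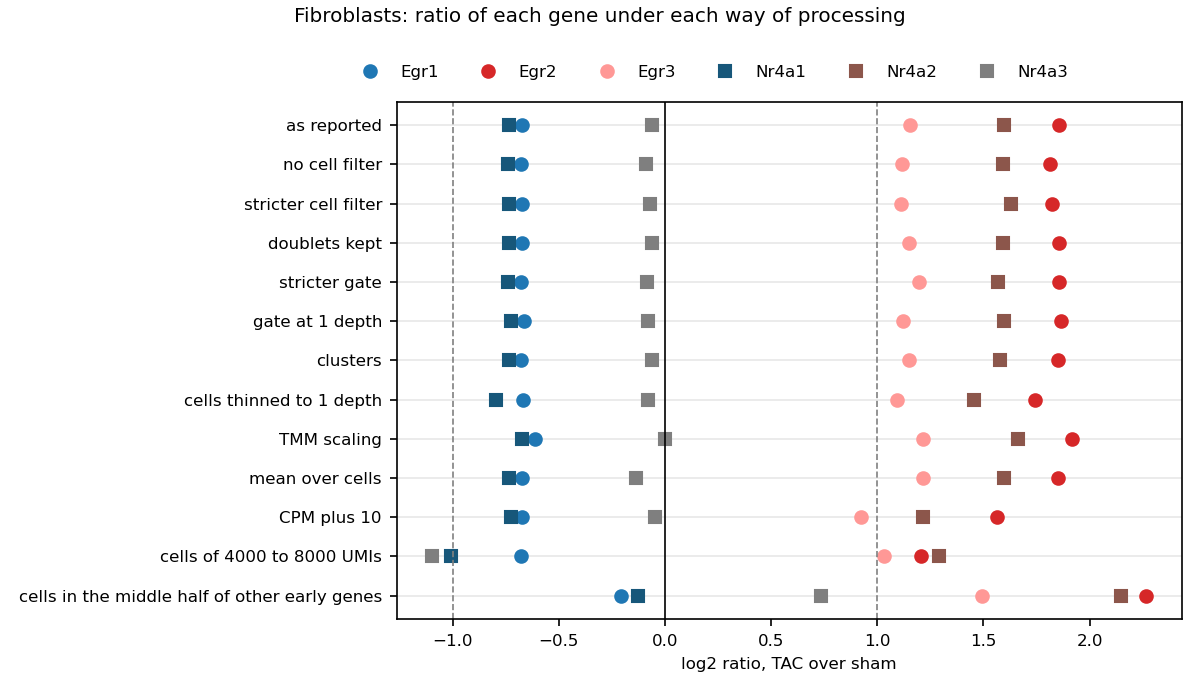
The log2 ratio of CPM in fibroblasts, TAC over sham, for each gene as reported and under 12 alternative ways of processing, with dashed lines at 2-fold. Egr2, Egr3 and Nr4a2 lie right of 0 and Egr1 and Nr4a1 left of 0 under each of them, while Nr4a3 lies between -1.10 and 0.73.

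Fibroblasts were split by a UMI of single genes: Comp and Postn, matrix genes of activated fibroblasts, and Pi16, a gene of adventitial progenitor-like fibroblasts. A Pi16 UMI was seen in 4886 of 5413 TAC and 4528 of 6102 sham fibroblasts, and a Postn UMI in 4406 TAC fibroblasts. A UMI of a gene seen in most cells does not isolate a fibroblast state. Nr4a2 had 93.5 CPM (89.3 to 97.8) in the 1529 TAC fibroblasts with a Comp UMI and 40.8 CPM (39.0 to 42.7) in the 3884 without, and 60.8 CPM in TAC fibroblasts with a Postn UMI and 33.4 CPM in those without. Egr2 and Egr3 did not share this pattern, at 98.8 and 46.9 CPM in TAC fibroblasts with Comp and 111.8 and 66.5 CPM in those without. In sham fibroblasts Egr2 was 49.7 CPM (32.5 to 72.9) in the 90 cells with Comp and 29.5 CPM in those without, Egr3 59.3 CPM (40.3 to 84.2) and 26.7 CPM, and Nr4a2 17.2 and 18.7 CPM. In cells with Comp Egr3 was therefore not higher in the TAC library, at 46.9 CPM beside 59.3 CPM from 31 sham UMIs. Even TAC fibroblasts without Postn, 1007 cells, held 96.6 CPM of Egr2 and 57.6 CPM of Egr3, above the 29.8 and 26.5 CPM of the 5831 sham fibroblasts without Postn. Egr1 was 2584 CPM in the 527 TAC fibroblasts without Pi16 and 1918 CPM in the 4886 with it, and 3750 and 2970 CPM in sham fibroblasts without and with it. A cell with more UMIs is more likely to show any of these genes. In TAC fibroblasts the median depth was 12515 UMIs with and 11911.5 without Comp, 12522.5 and 10407 for Postn, and 12312 and 10227 for Pi16. In sham fibroblasts it was 5216 UMIs with and 4395.5 without Pi16. The part of depth or of RNA carried over between cells in these subset values was not tested.

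In macrophages 0 of 4 measured members passed 2-fold, where 5.65% of 8170 genes did, 3.35% upwards and 2.30% downwards. Egr1 had 866 CPM (844 to 888) in TAC macrophages and 810.3 CPM (786 to 835) in sham macrophages, a ratio of 1.07 (1.03 to 1.11). Nr4a1 had 139 CPM (130.3 to 148) in the TAC library and 117 CPM (109 to 127) in the sham library, a ratio of 1.18 (1.07 to 1.31). Both were therefore slightly higher in TAC macrophages, where they were lower in TAC fibroblasts. Nr4a2 had 24.2 CPM (20.7 to 28.1) in TAC and 16.6 CPM (13.3 to 20.4) in sham macrophages, a ratio of 1.46 (1.12 to 1.91). This order was not the same at every depth, as given below. Egr2 had 13.7 CPM (11.1 to 16.7) in TAC and 19.2 CPM (15.7 to 23.3) in sham macrophages, a ratio of 0.712 (0.534 to 0.950) that rests on 96 and 103 UMIs, of which 1 sham cell held 16. Egr3, with 4.41 and 6.52 CPM, and Nr4a3, with 6.69 and 5.96 CPM in TAC and sham macrophages, were under the 10 CPM set for a ratio.

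After thinning to 3200 UMIs, Egr1 was seen in 68.1% of TAC macrophages (64.3 to 71.7) and 62.0% of sham macrophages (58.5 to 65.4), and Nr4a1 in 26.2% (22.8 to 29.8) and 18.6% (15.9 to 21.4). Unthinned, these shares were 80.2% and 66.1% for Egr1 and 46.9% and 24.5% for Nr4a1. The other 4 members were each seen in under 4% of thinned macrophages of either library, with overlapping intervals. In both libraries Egr1 was higher in each bin of other early RNA than in the one before, at 200.2 and 1722 CPM in the lowest and highest TAC bins and 181 and 1734 CPM in the sham ones. Egr1 thus varied far more among macrophages of a library than between the libraries.

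Nr4a2 in macrophages was also split by subset genes. TAC macrophages with a UMI of Ccr2, the chemokine receptor of monocyte-derived cells, had 37.6 CPM of Nr4a2 (31.8 to 44.2) and those without 7.11 CPM (4.46 to 10.8). Sham macrophages with Ccr2 had 24.5 CPM (17.7 to 33.0) and those without 12.7 CPM (9.31 to 17.0). Cells with Ccr2 were 302 of 665 TAC and 222 of 982 sham macrophages, but TAC cells were deeper and a deeper cell is more likely to show a UMI: the median was 9761.5 UMIs with and 8255 without Ccr2 in the TAC library, and 5747.5 and 4263.5 in the sham library. Without Ccr2 the Nr4a2 values rest on 22 TAC and 46 sham UMIs, and their intervals overlap. Nr4a2 also varied over depth. In macrophages of over 12000 UMIs it was 38.3 CPM in TAC and 27.4 CPM in sham cells, and in those of 5000 to 8000 UMIs 21.6 and 15.5 CPM. Among macrophages of 8000 to 12000 UMIs the order was the reverse, at 9.21 CPM (5.77 to 13.9) in TAC and 24.7 CPM (15.3 to 37.7) in sham cells. The part of depth in the Ccr2 values and in the Nr4a2 ratio of the class was not tested. Egr1 was 869 CPM in the 95 TAC macrophages with Timd4, a gene of resident macrophages, and 865 CPM in the 570 without. In sham macrophages it was 635 CPM in the 366 with Timd4 and 973 CPM in the 616 without. The sign thus turned within the class: with Timd4 Egr1 was higher in TAC than in sham macrophages (823 to 918 and 604 to 666 CPM as intervals), and without it lower (841 to 890.0 and 937 to 1011 CPM). Cells with Timd4 were also deeper, with medians of 11142 UMIs with and 8388 without it in TAC and 5273.5 and 3986.5 in sham macrophages. Egr1 was 1107 CPM in sham macrophages of under 3000 UMIs and 671 CPM in those of over 12000. The part of depth in the Timd4 values was not tested.

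The lists beside the members also looked different in macrophages. Of 25 measured other early genes 1 passed 2-fold upwards, the matricellular gene Cyr61 at 181 CPM in TAC and 73.7 CPM in sham macrophages, and 0 passed it downwards, with a median log2 ratio of -0.23. Klf2, Atf3 and Ier3 were next in size, at log2 ratios of -0.997, -0.92 and -0.83, none of them past 2-fold. Heat shock genes were lower, with 6 of 10 past 2-fold and a median of -1.17, led by Hspb1 at 21.2 CPM in TAC and 222.7 CPM in sham macrophages. Egr1 and Nr4a1 thus lay above the median of both lists in this class.

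In endothelial cells none of the 4 measured members passed 2-fold, and all 4 log2 ratios were below 0, with a median of -0.38 beside -0.12 over all genes. Of all 9339 genes 17.0% passed 2-fold there, 6.93% upwards and 10.0% downwards. Egr1 had 562 CPM (535 to 590.2) in TAC and 758 CPM (673 to 852) in sham endothelial cells, a ratio of 0.741 (0.653 to 0.844). Nr4a1 had 111 CPM (98.7 to 123) in the TAC library and 139 CPM (104 to 183) in the sham library, and its ratio of 0.793 had an interval of 0.590 to 1.09. Only the Egr1 interval stayed below 1. Egr3 rested on 24 TAC and 6 sham UMIs, Nr4a2 on 32 and 5, Nr4a3 on 5 and 1 and Egr2 on 6 and 0. The sign of Nr4a2 held in 5 of 11 alternatives and that of Nr4a1 in 11 of 12, so no direction is given for Nr4a2. Scaling by trimmed means moved every log2 ratio up by 0.16 in this class and by 0.17 in lymphatic endothelial cells, and Egr1 was then at -0.28 in endothelial cells. With that scaling 903 of all genes were higher and 723 lower in TAC endothelial cells, against 647 and 938 as reported. The counts were 1127 and 792 in lymphatic endothelial cells, against 847 and 1094.

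Endothelial subsets differed in Egr1, more so in the sham library. The 484 TAC endothelial cells with at least 2 of the capillary genes Rgcc, Car4 and Gpihbp1 had 591 CPM of Egr1 (559.96 to 624), and the 106 others 456 CPM (405 to 513). In the sham library the 58 such cells had 1146 CPM (968 to 1347) and the 85 others 556 CPM (466 to 657). Beside these values, 0 of 26 other early genes passed 2-fold upwards and 3 downwards in endothelial cells, with a median log2 ratio of -0.31, and 6 heat shock genes passed it downwards, with Hspa1a at 186 CPM in TAC and 796 CPM in sham cells. Their part in the Egr1 difference was not tested. At 1400 UMIs per cell Egr1 was seen in 33.3% of TAC (29.4 to 37.3) and 43.9% of sham endothelial cells (34.6 to 53.5), which overlap within counting error, and unthinned in 50.7% and 51.7%.

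Lymphatic endothelial cells held Egr1 at 999 CPM (959 to 1041) in the TAC library and 926 CPM (788 to 1081) in the sham library, a ratio of 1.08 (0.919 to 1.27). Nr4a1 was low there, at 54.1 CPM (45.0 to 64.6) in TAC cells and 46.3 CPM (20.0 to 91.2) in sham cells, where it rests on 8 UMIs. Neither ratio was told apart from 1 by counting error. Nr4a2 had 30 UMIs in 280 TAC cells, 13.2 CPM, and 0 UMIs in 62 sham cells, where 3 counts would already be 17.4 CPM, so no fold is given. Egr2, Egr3 and Nr4a3 had 4, 3 and 2 UMIs in TAC cells and 0 in sham cells. None of the 3 measured members passed 2-fold, beside 20.8% of all 9328 genes, 9.08% upwards and 11.7% downwards. Of 26 other early genes 3 passed it upwards and 3 downwards, with a median log2 ratio of -0.16, and of 10 heat shock genes 1 upwards and 3 downwards, with a median of -0.43.

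Across the 4 classes of the TAC library the order of Egr1 was fibroblasts, lymphatic endothelial cells, macrophages and endothelial cells, and no neighbouring counting intervals overlapped. In the sham library fibroblasts led, and the intervals of the other 3 classes overlapped from each to the next. Nr4a1 was ordered fibroblasts, macrophages, endothelial and lymphatic endothelial cells in the TAC library, and in the sham library endothelial cells and macrophages could not be told apart. For Nr4a2, TAC fibroblasts stood above TAC macrophages, at 56.7 and 24.2 CPM, while the intervals of sham fibroblasts and sham macrophages, at 18.7 and 16.6 CPM, overlapped.

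Fibroblast RNA in other classes sets a limit on low values. Fibroblast marker genes in macrophages were at 1.13% of their fibroblast level in the TAC library and at 0.652% in the sham library, in endothelial cells at 1.47% and 2.29%, and in lymphatic endothelial cells at 1.02% and 1.25%. The same fibroblast markers served the gate, which left out cells holding many of them, so these shares can understate carry-over. At those shares carry-over would bring 22.3 CPM of Egr1 into TAC macrophages and 20.5 CPM into sham macrophages, well under the 866 and 810.3 CPM measured. Egr2 in TAC endothelial cells, at 2.11 CPM, was close to the 1.58 CPM that carry-over would bring, and Egr2 in TAC lymphatic endothelial cells, at 1.76 CPM, close to 1.105 CPM. The ratio of Egr1 to Nr4a1 was 18.5 in TAC and 20.0 in sham lymphatic endothelial cells, 6.24 and 6.90 in macrophages, 5.08 and 5.44 in endothelial cells and 3.29 and 3.15 in fibroblasts. The ratio in sham lymphatic endothelial cells rests on 8 Nr4a1 UMIs, and the part of carried RNA in these levels was not tested.

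The partner genes of the members did not pass 2-fold in fibroblasts. There the EGR corepressor genes Nab1 and Nab2, whose proteins bind EGR factors and damp them, had 69.9 and 49.4 CPM in the TAC library and 112 and 53.7 CPM in the sham library. The retinoid X receptor genes Rxra and Rxrb, whose proteins pair with Nr4a1 and Nr4a2, had 24.7 and 32.6 CPM in TAC and 17.9 and 29.6 CPM in sham fibroblasts. None of 6 measured SRF and ternary complex factor genes and none of 8 genes of the CREB family and its coactivators passed 2-fold there, with median log2 ratios of 0.36 and -0.25. Elk3, a ternary complex factor, had 44.0 CPM in TAC and 29.4 CPM in sham fibroblasts, and Sik1, a kinase that inhibits CREB coactivators, 24.2 and 41.5 CPM. Of 7 measured MAP kinase phosphatase and Sprouty genes, feedback inhibitors of the kinases upstream of Egr1, only Dusp1 passed 2-fold, at 620.1 CPM in TAC and 1297 CPM in sham fibroblasts.

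Some feedback genes passed 2-fold outside fibroblasts. In macrophages Sik1 was at 40.4 CPM in the TAC library and 18.2 CPM in the sham library, a log2 ratio of 1.15, and Dusp5 at 9.82 and 20.7 CPM. None of the corepressor, RXR or SRF list genes passed 2-fold in macrophages or endothelial cells, nor did the 8 measured CREB list genes in endothelial cells. In endothelial cells 2 of 9 measured genes of the phosphatase and Sprouty list passed 2-fold upwards and 1 downwards. Spry1, an inhibitor of receptor tyrosine kinase signalling, had 293 CPM in TAC and 64.3 CPM in sham endothelial cells, from 836 and 24 UMIs, and Spry4 75.5 and 26.8 CPM, from 215 and 10 UMIs, while Dusp5 had 6.67 and 16.1 CPM, from 19 and 6 UMIs. Of all genes in this class 6.93% passed 2-fold upwards and 10.0% downwards. The EGR and NR4A members of the same cells did not pass 2-fold. Counts in lymphatic endothelial cells were small: Nab2 had 23 UMIs in TAC and 4 in sham cells, Rxra 48 and 8, Creb1 103 and 17, Sik1 88 and 2 and Mkl2 55 and 1, of 2272715 TAC and 172807 sham UMIs in all.

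Genes whose level followed each member most closely over the 8 class and library sums were listed among 5765 genes, by Pearson r of log2(CPM + 10). The sums share libraries and are dominated by the step between fibroblasts and other classes, so r is a description. Egr1 was closest to Cpq, Tm2d2 and Gnpnat1 (r of 0.98, 0.97 and 0.97), Egr2 to Enpp1, Mt2 and Serpinf1 (0.97 each), and Egr3 to Mdk, Rpn1 and Ackr4 (0.97, 0.96 and 0.96). Nr4a1 was closest to Slc1a5, Bmpr1a and Cxcl1 (0.97 each), Nr4a2 to Rrbp1, Pdia6 and R3hdm4 (0.94, 0.93 and 0.93), and Nr4a3 to Clmp, Ifi205 and Egfr (1.00, 0.99 and 0.99). No gene was among the closest 3 of more than 1 member. Among the members themselves Nr4a1 and Nr4a3 were the most alike pair, with an r of 0.97, and Egr1 and Nr4a2 the least alike, with an r of 0.45.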

How the data were processed

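The authors deposited unnormalized UMI counts of genes in barcodes. Their headers name Cell Ranger 3.1.0, and mm10 and Seurat stand in the submitters' processing notes, Seurat with no role given. Of 31053 gene IDs, 30934 matched GENCODE vM21. Barcodes under 500 genes, under 1000 UMIs or over 15% mitochondrial UMIs were removed, 901 in the TAC and 462 in the sham library, then 146 and 70 Scrublet doublets (1.83% and 0.879%, expected rate 0.07, Scanpy 1.11.5), which left 90871511 and 41178312 UMIs. A cell joined 1 of 16 marker classes if at least 50% of that class's markers and at least 3 of them had a UMI and no class of another lineage had over 50% of that share. This rule was set after marker values were seen, and names were rebuilt, so they can differ from the study's. UMIs were summed per class as CPM, with exact Poisson, conditional and Clopper-Pearson 95% intervals; genes with at least 10 CPM in either library were called at 2-fold, and 0 UMIs were set to 3 counts of the class sum. No test was run, since each group is a single library. Named genes were all 6 members, up to 4 genes of each of 7 lists by size of log2 ratio, and the 3 genes most like each member. Mrtfa and Mrtfb were matched as Mkl1 and Mkl2. The members and lists were chosen with earlier results of these data known. TMM factors came from edgeR 4.0.16 in R 4.3.3. The ratio step was tested on simulated sums drawn as Poisson counts, without variation from cell to cell.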

Additional observations from a re-analysis of the deposited data

Results flagged for a closer look

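Egr1 went in opposite directions in 2 classes with no overlap of counting intervals around 0: its log2 ratio, TAC over sham, was 0.0959 (0.04 to 0.15) in macrophages and -0.67 (-0.69 to -0.66) in fibroblasts. The same macrophage value of 0.0959 stood against -0.43 (-0.62 to -0.25) in endothelial cells. Egr2 was at 1.85 (1.76 to 1.95) in fibroblasts and at -0.49 (-0.91 to -0.07) in macrophages. Nr4a1 was at 0.24 (0.10 to 0.39) in macrophages and at -0.73 (-0.76 to -0.71) in fibroblasts. With 1 library per group none of these differences between classes was tested, and the intervals cover counting error only. The Egr1 value in macrophages was 0.0012 with a stricter gate, so its sign there is thin. In macrophages without a Timd4 UMI Egr1 was lower in the TAC library, at 865 CPM in TAC and 973 CPM in sham cells. The signs of Egr2 and Nr4a1 in macrophages held in 12 of 12 alternatives, which reuse largely the same cells. Of the 103 sham Egr2 UMIs 1 cell held 16, and the thinned Egr2 shares, 3.33% in TAC and 3.94% in sham macrophages, overlapped. Nr4a1 was 144 CPM (129 to 160) in TAC and 157 CPM (132 to 186) in sham macrophages of 8000 to 12000 UMIs. It was higher in TAC macrophages of 5000 to 8000 UMIs, at 118 and 99.1 CPM, and of over 12000, at 144 and 110 CPM.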

How the results depend on the processing

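No paired analysis was possible because each group is 1 library, and for the same reason no library could be left out. In fibroblasts the signs of Egr1, Egr2, Egr3, Nr4a1 and Nr4a2 held in 12 of 12 alternatives, 2 of them added after the data were seen, and that of Nr4a3 in 10 of 12. With a pseudocount of 10 CPM, Egr3 was at 0.92 and 2 members passed 2-fold in fibroblasts, and 281 of all genes did, against 536 as reported. The same pseudocount gave 171 against 462 genes in macrophages, 601 against 1585 in endothelial cells and 947 against 1941 in lymphatic endothelial cells, where 1 member, Nr4a2, and not 0 then passed. In cells of 4000 to 8000 UMIs 5 members passed in fibroblasts, 1 in macrophages (lower, a gene under 10 CPM over the whole class) and 1 (Egr1, from 10 sham cells) in lymphatic endothelial cells. Of all genes, 652 (7.31%) passed there in fibroblasts, 769 in macrophages and 3355 in endothelial cells, the last from 17 sham cells. In endothelial cells 2 members passed with the stricter gate and 1 each with the gate at 1 depth, thinned cells and the mean over cells. As reported 0 members passed, beside 17.0% of all genes. The members that passed were Egr3, lower, and in the stricter gate also Nr4a2, higher at 1.49. Shares of all genes are not set beside the counts for these endothelial settings or for lymphatic endothelial cells of 4000 to 8000 UMIs. Those counts are therefore no result about the members as a set. The causes of these moves were not tested. Endothelial and lymphatic endothelial values rest on 373109 and 172807 sham UMIs from 143 and 62 cells.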

Other observations

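Classes of fewer than 50 cells in a library held too few UMIs for ratios. Their values, added after the data were seen, are given as counts and for some genes also as CPM with counting intervals. B cells stood apart among the classes in their EGR member: Egr3, known from antigen receptor signalling in lymphocytes, had 18 of 26 EGR UMIs in 39 TAC B cells and 6 of 13 in 51 sham B cells, while Egr1 had 7 and 6. In TAC B cells Egr3 was at 96.7 CPM (57.3 to 153) and in sham B cells at 67.5 CPM (24.8 to 147), which overlap. The 45 TAC pericytes held 122 UMIs of Egr1, 680.4 CPM (565 to 812), and 57 of Nr4a1, 318 CPM (241 to 412), and the 31 sham pericytes 27, 397 CPM (262 to 578), and 7, 103 CPM (41.4 to 212), with 0 UMIs of Egr2 and Egr3 in either library. Neutrophils, 60 cells in the TAC library and 4 in the sham library, held 15 UMIs of Egr1, 6 of Egr2 and 7 of Nr4a1 in the TAC library and 0 of all members in 4488 sham UMIs. In endocardial cells Egr1 had 114 UMIs in 41 TAC cells and 59 in 40 sham cells, 243 CPM (201 to 292) and 418 CPM (318 to 539), and Nr4a1 4 and 14 UMIs.

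Cells that entered no class, 658 in the TAC and 426 in the sham library, held Egr1 at 899 CPM (881 to 916) and 1215 CPM (1179 to 1253) and Nr4a1 at 171 CPM (164 to 179) and 294 CPM (276 to 313), both lower in TAC cells. In the same cells Nr4a2 was at 35.3 CPM (31.9 to 39.0) in the TAC and 30.3 CPM (24.8 to 36.8) in the sham library, Egr2 at 20.5 CPM (17.9 to 23.3) and 16.5 CPM (12.5 to 21.4), and Egr3 at 13.2 CPM (11.1 to 15.5) and 15.3 CPM (11.4 to 20.1), all with overlapping intervals.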
